A study of Mus musculus with 15 samples.

Results

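Cultures of the mouse macrophage-like line RAW264.7 were exposed to 10 µg of the peptide LCCL for 6 h and compared with untreated cultures. The comparison rests on 6 of the 15 libraries of the series, 3 from each group, and on all 12401 genes that passed a filter on low counts, of 25639 gene symbols counted. The other 9 libraries were cells given 1 µg for 6 h, and 1 µg or 10 µg for 24 h, with 3 libraries in each group. All groups carry the label WT, and messenger RNA was sequenced from whole cultures. The title of the series presents LCCL as a core motif in a candidate peptide drug that differentiates M1 macrophages, the classically activated and inflammatory form of the cell. No vehicle-treated cells are among the groups, the doses are given without a volume, and no harvest time is given for the untreated cells. What the vehicle or the time in culture contributed therefore cannot be told apart from what the peptide did.

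Macrophages recognise microbial products and tissue signals through Toll-like receptors and related sensors. Adaptor kinases then release the NF-kB transcription factors from their IkB inhibitors, and NF-kB turns on cytokines, chemokines and, as a brake, its own inhibitors. A second, later arm runs through interferon and factors such as STAT2 and IRF9, which act at interferon-stimulated response elements (ISREs). RAW264.7 cells carry both arms, and they can also fuse into osteoclast-like cells under the control of the factor NFATc1. They divide continuously in culture, so genes of the cell cycle are expressed without any stimulus.

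Library totals ran from 20171153 to 22368924 counts in the 10 µg 6 h libraries and from 20625877 to 22434642 counts in the untreated libraries. The cells carried the profile of macrophages. Identity markers, 19 in all and 17 of them tested, were led by the lysozyme gene Lyz2. Their summed level was 20690 to 20940 CPM (counts divided by library size and scaled to the same total) in 10 µg 6 h cells. It was 20890 to 21310 CPM in untreated cells. The identity markers Marco and Mertk averaged 3 counts or fewer per library over the 6 libraries. Of markers of other cells, all 10 for epithelium and 11 of 12 for T and NK cells, the chains Cd3d, Cd3e and Cd3g included, also averaged 3 counts or fewer. The T and NK cell list summed to 92.99 to 98.9 CPM in 10 µg 6 h cells and 54 to 58.4 CPM in untreated cells, nearly all of it Il7r. The dendritic cell list summed to 565 to 594 CPM in 10 µg 6 h cells and 601 to 644 CPM in untreated cells, nearly all of it the chemokine receptor gene Ccr9. In that list Batf3, Ccr7, Flt3 and Siglech averaged 3 counts or fewer per library. Markers of fibroblasts, B cells and neutrophils each summed to 0.603 to 2.09 CPM in 10 µg 6 h cells and 0.411 to 1.69 CPM in untreated cells. The part of such cells in the results was not tested. Both groups are bulk cultures, so a change in level per cell and a change in the share of cells that express a gene cannot be told apart.

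At 10 µg and 6 h, 738 genes passed edgeR's quasi-likelihood test at an adjusted p under 0.05, which is 5.95% of the genes tested. Of these, 507 rose (4.09%) and 231 fell (1.86%). These shares are the background for the counts of every gene list below. Most of the changes were small. The median rise was 1.24-fold, and the median fall left 0.839 of the untreated level. Only 16 genes rose and 4 fell by at least 2-fold, and 279 of the risers (55.0%) and 163 of the fallers (70.6%) changed by less than 1.25-fold. In 737 of the 738, the 3 libraries of one group lay entirely above or below the 3 of the other, as they also did in 14.0% (above) and 13.3% (below) of all tested genes. Calls were more frequent among abundant genes, at 0.786% of 1018 genes under 1 CPM and 10.7% of 2371 genes at 100 CPM or more. The count of called genes was 400, 469 and 433 when untreated replicate 1, 2 or 3 was left out, and 458, 390 and 445 when 10 µg 6 h replicate 1, 2 or 3 was. It was 1487 of 11882 genes when only these 6 libraries were filtered, scaled and fitted. In the gene lists described here with 0 genes called in a direction, apart from the TCA cycle and respiratory chain list below, edgeR gave 0 to 4 members an unadjusted p under 0.05 in that direction. DESeq2 called at most 1 such member and limma-voom 0. Replicates are separate libraries whose cultures are not described, so p-values measure only how these libraries vary, and that variation may be technical.

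**Figure D1:**
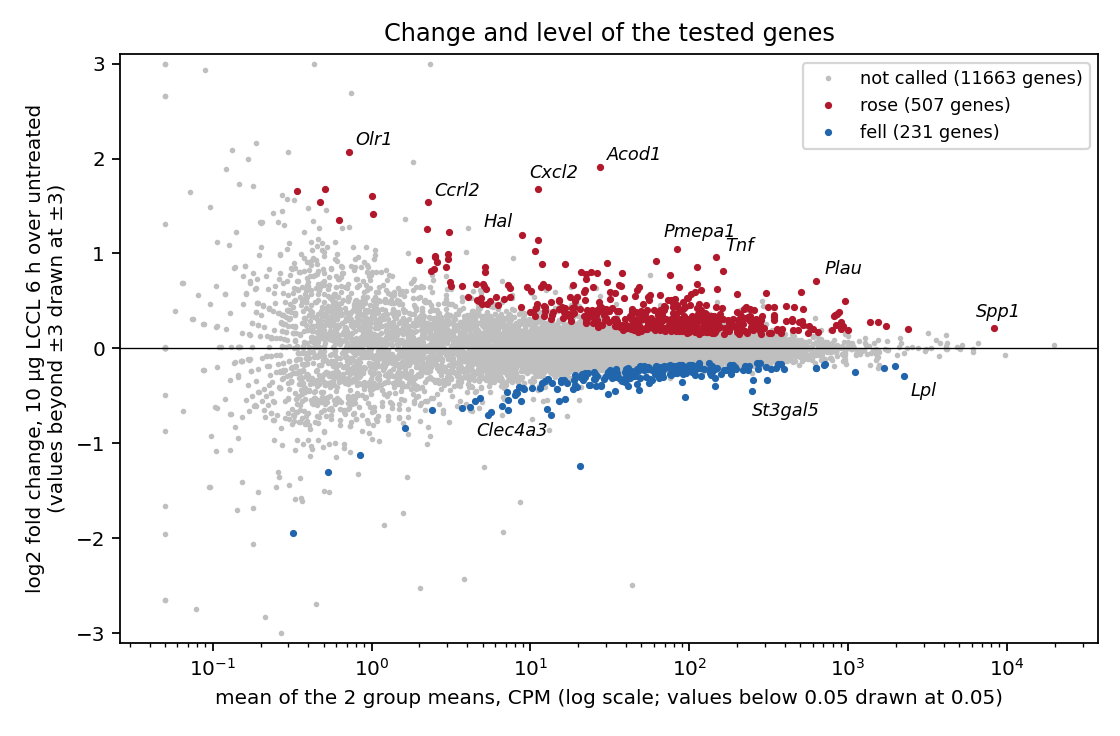
Log2 fold change of 10 µg LCCL 6 h over untreated (y axis) against the mean CPM of the 2 groups (x axis, log scale) for each of the 12401 tested genes, with 507 genes that rose in red, 231 that fell in blue and the others in grey. Large changes sit at low and middle levels, and the called changes of the most abundant genes, such as Spp1 and Lpl, are small.

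The 12 largest rises among genes of at least 5 CPM were led by Acod1 and Cxcl2 and belonged to proteins of several kinds. Acod1, whose enzyme makes the antimicrobial metabolite itaconate, had 43.6, 40.2 and 47.2 CPM in 10 µg 6 h cells, against 12.5, 12.04 and 10.2 CPM in untreated cells. All treated libraries were far above all untreated ones, and the log2 fold change was 1.91 ± 0.28 (SE, adjusted p = 0.00261). Hal, the first enzyme of histidine breakdown, stood at 12.98, 11.4 and 12.5 CPM against 5.46, 5.61 and 5.07 CPM (1.19 ± 0.12, adjusted p = 6.83e-07), again with a wide gap between the groups. Rgs16, a brake on G protein signalling, had 16.3, 15.1 and 14.8 CPM in treated and 8.39, 6.25 and 6.31 CPM in untreated libraries (1.14 ± 0.16, adjusted p = 9e-05). Pmepa1, a feedback inhibitor of TGF-beta signalling, gave 115, 118 and 106 CPM against 57.5, 51.1 and 55.3 CPM (1.05 ± 0.10, adjusted p = 3.36e-06). Its lowest treated library lay well above its highest untreated one. Prss46, a serine protease gene, had 13.9, 16.1 and 12.7 CPM and 8.78, 5.57 and 6.71 CPM (1.02 ± 0.15, adjusted p = 0.00012), with more scatter among the untreated libraries. Tmem26, a membrane protein gene, had 16.04, 14.4 and 15.7 CPM against 8.15, 7.57 and 9.24 CPM (0.89 ± 0.23, adjusted p = 0.0381). Its groups were as clearly apart, but its call was lost when any 1 library was dropped (adjusted p between 0.0828 and 0.132).

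The falls were shallower. Genes with clone or predicted-gene names were left out of the ranking of rises and falls. Of these, 9930111J21Rik2, a gene without a described role here, had 11.3, 15.1 and 10.7 CPM in 10 µg 6 h cells and 26.1, 32.2 and 28.7 CPM in untreated cells (-1.24 ± 0.19, adjusted p = 0.00232), a deeper fall than in any ranked gene. Clec4a3, a C-type lectin receptor gene, had 10.2, 9.34 and 10.2 CPM in 10 µg 6 h cells and 15.9, 16.1 and 14.6 CPM in untreated cells (-0.64 ± 0.11, adjusted p = 0.00046). Zfp608, a zinc finger gene, had 5.79, 5.82 and 5.31 CPM against 9.71, 8.26 and 8.54 CPM (-0.65 ± 0.12, adjusted p = 0.000882). Sla encodes an adaptor that dampens receptor signalling, and stood at 5.84, 5.72 and 5.99 CPM against 8.93, 8.58 and 8.10 CPM (-0.54 ± 0.10, adjusted p = 0.000847). In all 3 genes the groups were apart and the call stayed without any 1 library. The other 9 of the 12 largest falls were less stable. Eml6 (log2 fold change -0.61 ± 0.14) was not called without 10 µg 6 h replicate 3 (adjusted p = 0.0612), and its exons overlap those of the far more abundant Rtn4 on the other strand. Fut7, a fucosyltransferase gene (-0.67 ± 0.15), was not called without untreated replicate 3 (adjusted p = 0.0898) or 10 µg 6 h replicate 3 (adjusted p = 0.0626). Sys1 (-0.70 ± 0.16), which shares exon sequence with Gm20458, was not called without untreated replicate 1 (adjusted p = 0.0536) or 10 µg 6 h replicates 2 and 3 (adjusted p = 0.071 and 0.0692). Cd300e, a receptor of myeloid cells (-0.56 ± 0.14), was not called without untreated replicates 1 and 3 (adjusted p = 0.0569 and 0.0579) or 10 µg 6 h replicates 1 and 2 (adjusted p = 0.053 and 0.0652), and Clec10a, a lectin for galactose sugars (-0.55 ± 0.15), was not called without untreated replicates 1 and 3 (adjusted p = 0.0949 and 0.112) or 10 µg 6 h replicates 1 and 3 (adjusted p = 0.0834 and 0.0865). Ahrr, the repressor of the aryl hydrocarbon receptor (-0.62 ± 0.17), was not called without untreated replicates 2 and 3 (adjusted p = 0.118 and 0.0998) or 10 µg 6 h replicates 1 and 2 (adjusted p = 0.183 and 0.134). Nphs1 (-0.70 ± 0.20) was not called without untreated replicates 1 and 2 (adjusted p = 0.143 and 0.12) or 10 µg 6 h replicates 1, 2 and 3 (adjusted p = 0.0993, 0.135 and 0.113), Hddc3 (-0.53 ± 0.15) without untreated replicates 2 and 3 (adjusted p = 0.173 and 0.122) or 10 µg 6 h replicates 2 and 3 (adjusted p = 0.161 and 0.173), and Ier5l (-0.53 ± 0.15) without untreated replicates 1 and 3 (adjusted p = 0.239 and 0.0751) or 10 µg 6 h replicates 2 and 3 (adjusted p = 0.136 and 0.14). Hddc3 was also not called when only the 6 libraries were fitted (adjusted p = 0.0538), and its exons overlap those of Man2a2 on the other strand.

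**Figure D2:**
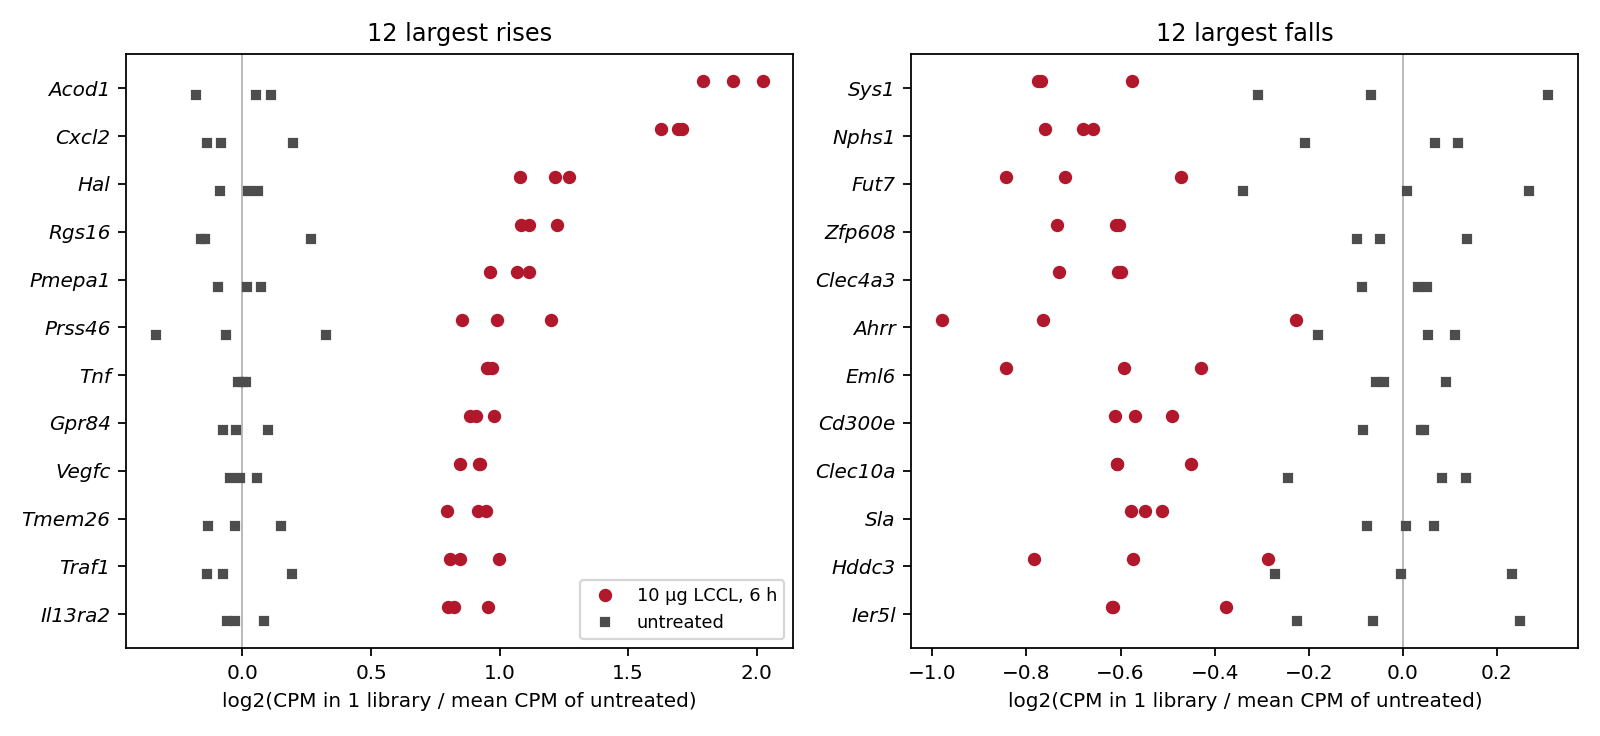
Each library's CPM over the mean CPM of untreated libraries (x axis, log2) for the 12 largest rises (left) and the 12 largest falls (right) among genes of at least 5 CPM without clone or predicted-gene names, with 10 µg LCCL 6 h libraries as red circles and untreated libraries as grey squares. All 12 rises sit clear of the untreated libraries, while in falls such as Hddc3 and Ahrr the groups nearly touch.

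Among secreted signals, the cytokine and chemokine genes that were called all rose. Of 14 tested inflammatory cytokine genes, 3 rose (21.4%, beside 4.09% of all tested genes) and 0 fell. The median log2 fold change was 0.27 beside -0.002 over all tested genes. Tnf, the main inflammatory cytokine of macrophages, had 194, 196 and 194 CPM in 10 µg 6 h cells and 101, 99 and 100.3 CPM in untreated cells. The 3 libraries of each group were almost equal, and the log2 fold change was 0.96 ± 0.14 (adjusted p = 0.00204). Vegfa, the growth factor of blood vessels, had 19.2, 24.2 and 21.1 CPM against 17.4, 14.6 and 15.7 CPM (0.44 ± 0.08, adjusted p = 0.00108). Il1rn, the natural antagonist of interleukin-1, had 177, 188 and 183 CPM against 121, 116 and 116 CPM (0.63 ± 0.16, adjusted p = 0.0413). Il1rn was not called when any 1 of the 6 libraries was dropped (adjusted p between 0.0918 and 0.128), but stayed called when only these 6 were fitted. The TNF family ligand gene Tnfsf9, which co-stimulates T cells, also rose (0.28 ± 0.06, adjusted p = 0.00558), but not without untreated replicate 2 (adjusted p = 0.0523) or 10 µg 6 h replicate 2 (adjusted p = 0.0589).

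Of 9 tested chemokine genes, 3 rose (33.3%, beside 4.09% of all tested genes) and 0 fell. Ccl4, a chemokine for monocytes and T cells, had 90.9, 92.96 and 91.2 CPM in treated and 66.8, 60.6 and 70.6 CPM in untreated libraries (0.47 ± 0.10, adjusted p = 0.011). Cxcl10, an interferon-induced chemokine, had 17.3, 18.4 and 17.7 CPM against 12.5, 12.5 and 12.8 CPM (0.50 ± 0.12, adjusted p = 0.0104). It was not called without 10 µg 6 h replicate 2 (adjusted p = 0.0589), and shares exon bases with Art3, a gene on the opposite strand that averaged 0.256 CPM in untreated cells. Cxcl2, which attracts neutrophils, had 17.3, 16.6 and 17.5 CPM against 6.15, 5.06 and 4.87 CPM (1.68 ± 0.41, adjusted p = 0.0399). Its treated libraries were all far above the highest untreated one, yet the call was lost when any 1 of the 6 libraries was dropped (adjusted p between 0.099 and 0.132). It stayed called when only these 6 libraries were fitted. The main fit takes its spread from all 15 libraries, and Cxcl2 had 31.2, 10.8 and 9.95 CPM at 1 µg for 24 h. The part of that scatter in the lost calls was not tested. The count of 3 chemokine genes was 2, 2 and 2 when untreated replicate 1, 2 or 3 was left out, and 2, 1 and 2 when 10 µg 6 h replicate 1, 2 or 3 was. The most abundant chemokine gene, Ccl9, had 443, 418 and 434 CPM against 436, 454 and 432 CPM, with overlapping groups.

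Of 15 tested markers of classical activation, 4 rose and 1 fell, with a median log2 fold change of 0.33. The 4 rises, Acod1, Tnf, Cxcl10 and Cd40, were 3, 4 and 4 when untreated replicate 1, 2 or 3 was left out, and 3, 3 and 4 when 10 µg 6 h replicate 1, 2 or 3 was. The fall was in Fcgr1, a high-affinity receptor for IgG, at 10.6, 10.8 and 8.06 CPM in 10 µg 6 h cells and 13.3, 13.1 and 13.02 CPM in untreated cells (-0.42 ± 0.12, adjusted p = 0.039), and was lost without untreated replicates 1, 2 and 3 (adjusted p = 0.126, 0.103 and 0.102) or 10 µg 6 h replicates 1 and 3 (adjusted p = 0.0625 and 0.221). Several other textbook markers were hardly expressed in either group. Nos2, the inducible nitric oxide synthase, had 3, 1 and 3 counts in 10 µg 6 h libraries and 4, 0 and 1 in untreated ones. Il1b had 1, 2 and 4 counts against 3, 1 and 3. Il6 had 0 counts in the treated group and 1 in the untreated group, and Il12b had 0 in both. For a library, 0 counts allow a level of up to 0.137 to 0.153 CPM (3 counts, counting error only). Ptgs2, the inducible cyclooxygenase, had 15.99, 15.2 and 14.4 CPM against 9.71, 9.90 and 10.04 CPM. Its groups did not overlap but the log2 fold change of 0.62 ± 0.39 was not called (adjusted p = 0.461), while it was called when only these 6 libraries were fitted (adjusted p = 4.72e-05). The co-stimulatory receptor gene Cd40 rose (3.80, 3.22 and 2.99 CPM against 1.32, 1.96 and 1.84 CPM, 0.96 ± 0.24, adjusted p = 0.0151), but not without untreated replicate 1 (adjusted p = 0.0992) or 10 µg 6 h replicate 1 (adjusted p = 0.0826). Of 12 tested alternative activation genes, 1 rose and 2 fell. Tgm2, a transglutaminase gene that shares exon bases with the more abundant Rprd1b, had 20.2, 20.5 and 22.4 CPM in treated and 13.8, 16.2 and 13.3 CPM in untreated libraries (0.54 ± 0.14, adjusted p = 0.0221) and was not called without untreated replicates 1 and 3 (adjusted p = 0.101 and 0.107) or 10 µg 6 h replicates 1, 2 and 3 (adjusted p = 0.0516, 0.0663 and 0.0979). The fallers were the lectin genes Clec7a and Clec10a, and the 2 falls were 1, 2 and 1 when untreated replicate 1, 2 or 3 was left out, and 1, 2 and 1 when 10 µg 6 h replicate 1, 2 or 3 was. Of the other genes of that list, Retnla and Chil3 had 0 counts in all 6 libraries, Arg1 had 100 counts against 59, and Mrc1 had 46 against 67.

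Receptors moved in both directions, with receptors for cytokines, lipids and bacterial products among the risers. Il13ra2, the decoy receptor for interleukin-13, had 154, 140.3 and 138 CPM in 10 µg 6 h cells and 76.1, 83.9 and 77.8 CPM in untreated cells. It had the smallest p-value of all tested genes (0.86 ± 0.06, adjusted p = 1.47e-08). Il7r, the interleukin-7 receptor known from lymphocytes, had 96.03, 98.7 and 92.9 CPM against 56.2, 58.4 and 54 CPM (0.77 ± 0.09, adjusted p = 4.05e-05). Other T cell markers averaged 3 counts or fewer per library beside it. Gpr84, which binds medium-chain fatty acids, had 78.6, 79.9 and 83.9 CPM against 45.6, 41.8 and 40.3 CPM (0.92 ± 0.09, adjusted p = 4.31e-06). Ccrl2, an atypical receptor for chemerin, had 3.52, 3.47 and 3.09 CPM against 1.02, 1.05 and 1.39 CPM (1.54 ± 0.21, adjusted p = 2.54e-05), a wide gap at a low level. Olr1, a scavenger receptor for oxidised lipoprotein, was lower still, at 1.11, 1.07 and 1.30 CPM against 0.488, 0.137 and 0.199 CPM (2.07 ± 0.45, adjusted p = 0.00494). Of 15 tested Toll-like receptors and co-receptors, 2 rose and 1 fell, and without 1 library the risers were 2, 1 and 2 when untreated replicate 1, 2 or 3 was left out, and 2, 1 and 2 when 10 µg 6 h replicate 1, 2 or 3 was. Cd180, a relative of Tlr4 that dampens its signal, had 413, 428 and 403 CPM in treated and 363, 349.8 and 366 CPM in untreated libraries. It rose by 0.20 ± 0.05 (adjusted p = 0.00823) but was not called without untreated replicate 2 (adjusted p = 0.0519) or 10 µg 6 h replicate 2 (adjusted p = 0.0665). The 1 that fell was Cd36, a scavenger receptor and partner of Tlr2, at 127, 118 and 131 CPM against 168, 142 and 142 CPM (-0.26 ± 0.07, adjusted p = 0.0253), which was not called without untreated replicate 1 (adjusted p = 0.164) or 10 µg 6 h replicates 1 and 2 (adjusted p = 0.0683 and 0.132). Tlr2, which senses bacterial lipopeptides, had 534, 516 and 519.9 CPM against 405, 362 and 392 CPM (0.44 ± 0.09, adjusted p = 0.00797). Tlr4, the lipopolysaccharide receptor, had 157, 150.0 and 142 CPM against 169.8, 177 and 173 CPM, which gave -0.21 ± 0.07 and was not called (adjusted p = 0.118).

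Of 16 tested TNF receptor family genes, 4 rose and 0 fell. Fas, the death receptor, had 3.15, 3.62 and 3.33 CPM in treated and 1.95, 1.64 and 1.79 CPM in untreated libraries (0.91 ± 0.21, adjusted p = 0.00795). Tnfrsf12a, the receptor for TWEAK, had 34.7, 35.2 and 36.9 CPM against 28.8, 26.5 and 25.7 CPM (0.40 ± 0.08, adjusted p = 0.00401). Both were called without each library in turn, and the other two risers were Cd40 and Tnfrsf1b. Tnfrsf1b, the second TNF receptor, had 110.2, 121 and 116 CPM against 80.5, 80.1 and 79.6 CPM (0.53 ± 0.11, adjusted p = 0.0158) and was not called without untreated replicates 1, 2 and 3 (adjusted p = 0.0592, 0.0548 and 0.0594) or 10 µg 6 h replicates 2 and 3 (adjusted p = 0.0652 and 0.0539). The count of 4 was 2, 3 and 3 when untreated replicate 1, 2 or 3 was left out, and 3, 3 and 3 when 10 µg 6 h replicate 1, 2 or 3 was. Of 19 Fc and scavenger receptors, 2 rose and 3 fell, and the receptors for IgG went opposite ways. Fcgr2b, the inhibitory one, had 80.7, 83.05 and 79.4 CPM against 59.8, 62.3 and 57.03 CPM (0.44 ± 0.05, adjusted p = 4.77e-06). Fcgr3, an activating one, had 47.6, 48.1 and 48.5 CPM against 61.97, 56.6 and 58.7 CPM (-0.30 ± 0.07, adjusted p = 0.00876), and was not called without untreated replicate 1 (adjusted p = 0.0636). The 3 falls of this list were 0, 2 and 2 when untreated replicate 1, 2 or 3 was left out, and 1, 2 and 2 when 10 µg 6 h replicate 1, 2 or 3 was.

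Of 20 tested C-type lectin genes, 1 rose and 3 fell (1.86% of all tested genes fell), and in 8 all treated libraries were below all untreated ones, as in 13.3% of all tested genes. Clec7a, the beta-glucan receptor dectin-1, had 29.5, 28.4 and 28.9 CPM in 10 µg 6 h cells and 38.9, 41.8 and 37.6 CPM in untreated cells (-0.45 ± 0.06, adjusted p = 7.11e-05). Clec4e, the receptor mincle for mycobacterial glycolipid, went up, at 634, 569.8 and 624 CPM against 417, 425 and 366 CPM (0.60 ± 0.12, adjusted p = 0.01). Of 26 tested receptors of the CD300, Siglec, Pir and Lilr families with SIRP, 3 rose and 4 fell. The 4 falls were 2, 2 and 2 when untreated replicate 1, 2 or 3 was left out, and 2, 2 and 3 when 10 µg 6 h replicate 1, 2 or 3 was. Sirpa, the inhibitory receptor for CD47, had 989, 1031 and 1004 CPM against 1224, 1165 and 1216 CPM (-0.25 ± 0.05, adjusted p = 0.00261). Lilrb4a, an inhibitory receptor, had 1915, 1899 and 1858 CPM against 1605, 1629 and 1579 CPM (0.24 ± 0.05, adjusted p = 0.00308), and its close copy Lilrb4b gave 0.28 ± 0.06. How reads shared by these 2 copies were counted is not given, so their separate values are uncertain. Il6ra, the interleukin-6 receptor, fell too, at 152, 159 and 151 CPM against 179.8, 179 and 179.9 CPM (-0.22 ± 0.04, adjusted p = 0.00235). Further fallers were the myeloid signalling genes Lrrc25 (-0.42 ± 0.07, adjusted p = 0.000658) and Nfam1 (-0.33 ± 0.06, adjusted p = 0.000776).

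Further receptors and their partners changed singly. Of 26 genes in a list of interleukin and colony-stimulating factor receptors, 3 rose and 4 fell. This list leaves out Il13ra2 and holds receptors of other ligands, such as Tgfbr1 among the risers and Ifngr1 and Ifnar2 among the fallers. The falls were 2, 1 and 1 when untreated replicate 1, 2 or 3 was left out, and 1, 1 and 2 when 10 µg 6 h replicate 1, 2 or 3 was. Csf2rb2, a receptor chain for interleukin-3 and close copy of Csf2rb, had 72.1, 73.97 and 67.7 CPM in treated and 53.5, 55.6 and 58.1 CPM in untreated libraries (0.35 ± 0.06, adjusted p = 0.000728), with reads shared by the copies counted in a way not given here. Of 36 G protein-coupled receptors, 4 rose and 3 fell, the rises being 4, 2 and 3 when untreated replicate 1, 2 or 3 was left out, and 3, 3 and 4 when 10 µg 6 h replicate 1, 2 or 3 was, and the falls 1, 2 and 0 when untreated replicate 1, 2 or 3 was left out, and 1, 0 and 0 when 10 µg 6 h replicate 1, 2 or 3 was. Ptafr, the receptor for platelet-activating factor, had 89.7, 89.2 and 89.5 CPM against 74.2, 70.9 and 78.2 CPM (0.27 ± 0.05, adjusted p = 0.00161). P2ry2, a receptor for extracellular ATP and UTP, gave 0.37 ± 0.08 (adjusted p = 0.00866) and was not called without untreated replicate 2 (adjusted p = 0.0755). Of 27 co-stimulatory and checkpoint molecules, 5 rose and 1 fell. Cd274, the checkpoint ligand PD-L1, had 13.8, 14.3 and 16.3 CPM against 9.17, 10.3 and 8.30 CPM (0.67 ± 0.14, adjusted p = 0.00813), apart in every library. Of 28 genes of MHC presentation, 2 rose (7.14%, beside 4.09% of all tested genes) and 0 fell, or 1 rose without untreated replicate 1. H2-M3, which presents formylated bacterial peptides, had 53.4, 53.3 and 50.02 CPM against 41.4, 42.02 and 42.7 CPM (0.31 ± 0.06, adjusted p = 0.00127).

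Behind the receptors, 5 of 40 tested Toll-like receptor adaptors and kinases rose (12.5%, beside 4.09% of all tested genes) and 0 fell. Their median log2 fold change was 0.04. Irak2, a kinase of the signalling complex, had 81.3, 78.2 and 82.1 CPM in treated and 57.5, 60.6 and 59.02 CPM in untreated libraries (0.45 ± 0.05, adjusted p = 2.86e-06). Tbk1, the kinase upstream of interferon genes, had 134, 133 and 141 CPM against 112, 117 and 112 CPM (0.26 ± 0.05, adjusted p = 0.00184). Malt1, a scaffold and protease that activates NF-kB, had 122, 116 and 117 CPM against 94.1, 94.6 and 96.1 CPM (0.32 ± 0.06, adjusted p = 0.00206). Traf1, an adaptor of TNF receptors, nearly doubled in level, at 20.2, 23.1 and 20.8 CPM against 10.5, 10.9 and 13.2 CPM (0.89 ± 0.18, adjusted p = 0.00866). In none of these 4 genes did the groups overlap.

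The list of NF-kB feedback and target genes held the most risers of all lists. The lists were chosen with earlier results of these data known, so the count is a description only. Of 48 tested members, 32 rose and 0 fell (66.7% risen, beside 4.09% of all tested genes), and the median log2 fold change was 0.37. The count of risers was 29, 28 and 26 when untreated replicate 1, 2 or 3 was left out, and 28, 26 and 28 when 10 µg 6 h replicate 1, 2 or 3 was. Tnfaip3, the enzyme A20 that switches NF-kB signalling off, had 44.3, 51.1 and 47.7 CPM in 10 µg 6 h cells and 28.6, 26.9 and 27.1 CPM in untreated cells (0.79 ± 0.07, adjusted p = 2.37e-07). Its partner Tnip1 had 93.5, 97.6 and 107 CPM against 76.8, 75.1 and 75.6 CPM (0.39 ± 0.06, adjusted p = 5.26e-05). Zc3h12a, a nuclease that degrades cytokine transcripts, had 28.9, 32.3 and 29.6 CPM against 19.4, 20.5 and 17.98 CPM (0.65 ± 0.08, adjusted p = 4.38e-06). All 3 of these brakes on inflammation were higher in every treated library than in any untreated one. A separate list of negative regulators of Toll-like receptor and cytokine signalling went both ways. Of its 26 tested genes, 2 rose and 2 fell (7.69% each, beside 4.09% risen and 1.86% fallen of all tested genes), with a median of -0.02. Cd83, a maturation marker, had 54.3, 56.5 and 59.5 CPM against 36.5, 36.4 and 38.01 CPM (0.62 ± 0.06, adjusted p = 2.79e-07), and Icam1, an adhesion ligand for leukocytes, had 140.3, 143 and 142 CPM against 119, 115 and 113 CPM (0.29 ± 0.05, adjusted p = 0.000651). Birc3 (0.47 ± 0.06) and Cflar (0.42 ± 0.07), which block death-receptor signalling, rose as well (adjusted p = 7.7e-06 and 0.000302), as did the mitochondrial superoxide dismutase Sod2 (0.37 ± 0.05, adjusted p = 5.32e-05). Pim1, a survival kinase, gave 0.53 ± 0.07 (adjusted p = 2.21e-05) and Slfn2, a quiescence factor of leukocytes, gave 0.40 ± 0.05 (adjusted p = 5.69e-06).

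Of 14 NF-kB subunits and IkB proteins, 7 rose and 0 fell, and the strongest risers were IkB proteins. The inhibitor gene Nfkbie had 37.4, 39.05 and 38.6 CPM in treated and 25.2, 25.6 and 25.5 CPM in untreated libraries (0.59 ± 0.07, adjusted p = 2e-06). Nfkbiz, a nuclear IkB protein that helps induce late inflammatory genes, had 27.4, 23.9 and 27.9 CPM against 16.1, 14.6 and 14.7 CPM (0.80 ± 0.08, adjusted p = 8.48e-07). The classical inhibitor Nfkbia had 149.6, 155 and 148 CPM against 133, 122 and 123 CPM (0.26 ± 0.05, adjusted p = 0.00201). Among the DNA-binding subunits, Relb had 28.4, 30.99 and 33.2 CPM against 23.6, 23.5 and 23.2 CPM (0.40 ± 0.07, adjusted p = 0.00053). Rela stood at 64.1, 70.4 and 71.02 CPM against 74.3, 63.1 and 70.8 CPM and Nfkb1 at 122, 129 and 123 CPM against 117, 124 and 116 CPM, with overlapping groups in both. The count of 7 risers was 6, 5 and 4 when untreated replicate 1, 2 or 3 was left out, and 5, 4 and 5 when 10 µg 6 h replicate 1, 2 or 3 was.

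The promoters of 4 risers of the NF-kB feedback and target list, Tnfaip3, Nfkbie, Ccrl2 and Tnip1, are shown. Letters of the NF-kB motif, 10 bases long and searched on both strands, lie in them close to the gene's start. Each window runs from 250 bases before the start to 50 after it, in RefSeq on build GRCm38.p6, and capitals mark the matches. The windows are chr10:19015361-19015660 on the minus strand for Tnfaip3, chr17:45555450-45555749 on the plus strand for Nfkbie, chr9:111057469-111057768 on the minus strand for Ccrl2 and chr11:54962891-54963190 on the minus strand for Tnip1. The single matches of Nfkbie and Ccrl2 begin at -106 and -56 from the start, those of Tnfaip3 lie between -125 and -12, and Tnip1 has 3 overlapping ones around -58.
Tnfaip3 promoter: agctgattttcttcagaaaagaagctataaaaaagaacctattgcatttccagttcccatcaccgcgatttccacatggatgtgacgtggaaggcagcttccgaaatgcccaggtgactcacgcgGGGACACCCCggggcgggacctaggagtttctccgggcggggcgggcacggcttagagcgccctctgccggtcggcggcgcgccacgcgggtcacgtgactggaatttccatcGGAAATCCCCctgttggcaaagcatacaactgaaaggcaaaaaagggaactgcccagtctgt
Nfkbie promoter: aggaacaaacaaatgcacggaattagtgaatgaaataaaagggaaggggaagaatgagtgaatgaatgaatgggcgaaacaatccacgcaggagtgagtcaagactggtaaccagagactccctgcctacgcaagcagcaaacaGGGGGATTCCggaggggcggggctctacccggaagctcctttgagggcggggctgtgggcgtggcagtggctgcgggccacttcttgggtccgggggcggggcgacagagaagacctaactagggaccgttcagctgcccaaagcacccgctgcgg
Ccrl2 promoter: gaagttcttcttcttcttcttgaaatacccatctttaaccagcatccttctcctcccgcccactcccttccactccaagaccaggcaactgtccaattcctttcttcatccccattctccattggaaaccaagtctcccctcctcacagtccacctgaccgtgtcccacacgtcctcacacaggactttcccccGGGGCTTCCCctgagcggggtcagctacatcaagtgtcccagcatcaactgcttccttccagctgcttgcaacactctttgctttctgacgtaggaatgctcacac
Tnip1 promoter: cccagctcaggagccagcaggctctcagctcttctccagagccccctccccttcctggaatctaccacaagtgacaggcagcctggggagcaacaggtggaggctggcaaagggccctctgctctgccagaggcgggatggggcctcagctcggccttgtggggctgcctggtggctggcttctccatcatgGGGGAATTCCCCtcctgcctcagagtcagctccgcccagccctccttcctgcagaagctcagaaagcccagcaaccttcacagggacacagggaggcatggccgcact

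Promoter windows were at hand for 9623 of the tested genes, and a gene with several start sites was counted once if any of its windows held a match. The NF-kB motif was in 18 of 38 members of the target list (47.4%), beside 12.04% of all tested genes and 8.46% of all 32851 windows. It was in 69 of the 406 risers with a window (17.0%) and in 23 of the 178 fallers (12.9%). Among the list members that rose, 12 of 25 had it (48.0%), close to the share in the whole list. The AP-1 motif, TGANTCA on both strands, was in 1 of 24 AP-1 and immediate early genes with a window (4.17%), beside 6.28% of all tested genes and 7.81% of all windows, and in 0 of the 6 called. The SMAD element, GTCT followed by AGAC on both strands, was in 1 of 22 TGF-beta and BMP feedback genes (4.55%), beside 0.281% of all tested genes and 0.213% of all windows, and in 0 of the 6 called. A match is only a run of letters, and its absence says nothing of binding.

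**Figure D3:**
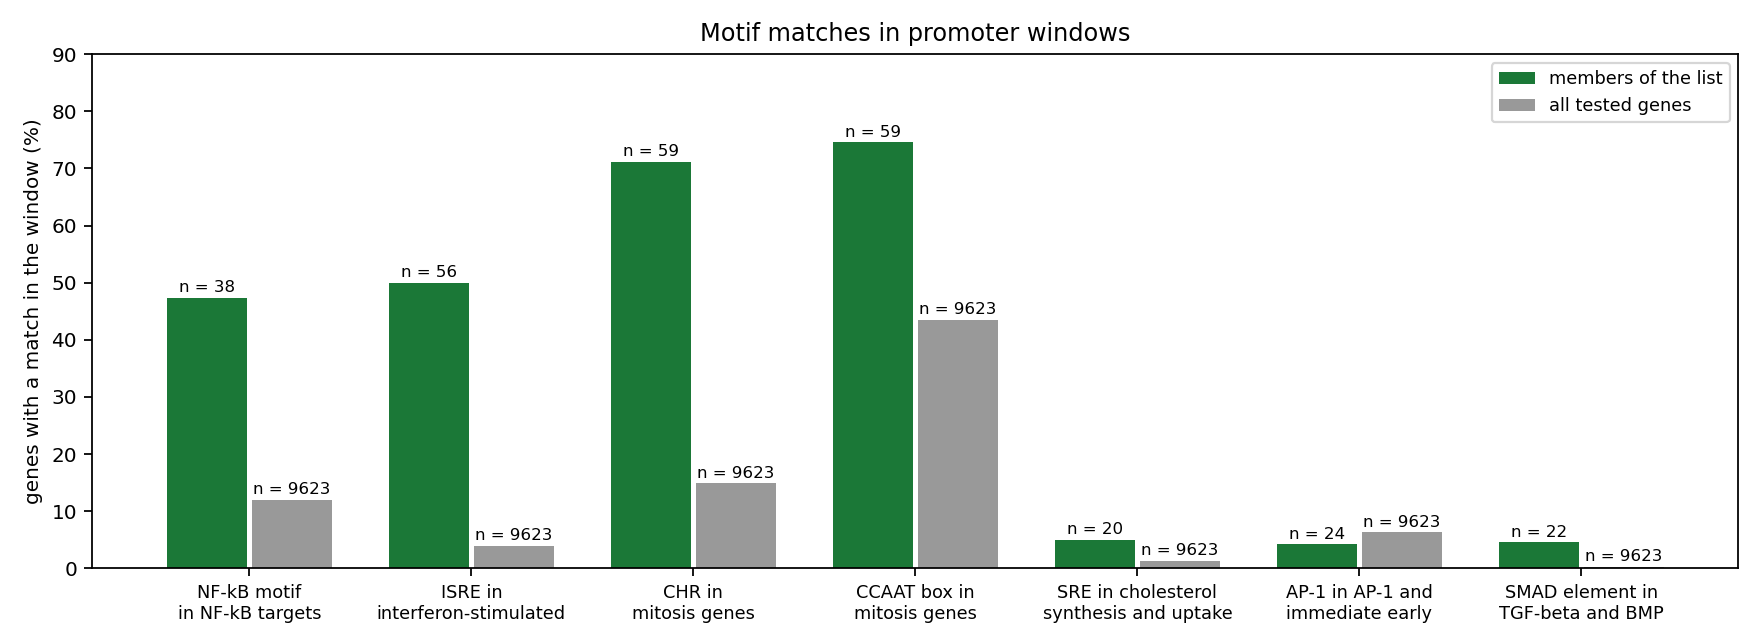
Share of genes with at least 1 motif match in a promoter window (y axis, percent, from 0) for 7 motifs, in members of the list named under each pair of bars (green) and in all 9623 tested genes with a window (grey). The shares in the lists are 47.4% for NF-kB, 28 of 56 for ISRE, 71.2% for CHR, 74.6% for the CCAAT box, 1 of 20 for SRE, 4.17% for AP-1 and 4.55% for the SMAD element, and those of all tested genes are 12.04%, 3.96%, 14.9%, 43.5%, 1.35%, 6.28% and 0.281%.

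Interferon-stimulated genes held the second largest number of risers of all lists. Of 70 tested, 30 rose (42.9%, beside 4.09% of all tested genes) and 0 fell, with a median log2 fold change of 0.23. Usp18, which removes ISG15 and shuts off the interferon receptor, had 86.02, 89.3 and 93.6 CPM in 10 µg 6 h cells and 56.7, 62.6 and 69.8 CPM in untreated cells (0.51 ± 0.06, adjusted p = 6.02e-06). Mx2, an antiviral GTPase, had 28.2, 27.8 and 27.9 CPM against 16.7, 16.97 and 16.8 CPM (0.73 ± 0.09, adjusted p = 9.46e-06), with almost no scatter within either group. Irgm1, a GTPase acting against intracellular bacteria, had 177, 167 and 170.5 CPM against 123, 139 and 147 CPM (0.33 ± 0.06, adjusted p = 0.000779). Its untreated libraries spread widely but stayed below the treated ones. Ifit1 (0.42 ± 0.09, adjusted p = 0.00465) and Rsad2 (0.44 ± 0.09, adjusted p = 0.00401), both antiviral effectors, rose by less than Mx2. Slfn5 (0.36 ± 0.05), Tor3a (0.34 ± 0.05) and Uba7 (0.40 ± 0.06), which activates ISG15, were called too, at adjusted p = 0.000114, 0.000123 and 0.000232. Isg15 itself had 24.8, 23.9 and 25.01 CPM against 19.03, 20.4 and 22.9 CPM, and its 0.24 ± 0.09 did not pass (adjusted p = 0.108).

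Untreated replicate 1 stood apart in these genes. In 28 of the 30 risers it was the lowest of the 3 untreated libraries, and its part in the result was not tested further than by leaving it out. The count of 30 risers was 14, 25 and 29 when untreated replicate 1, 2 or 3 was left out, and 21, 19 and 25 when 10 µg 6 h replicate 1, 2 or 3 was. Upstream, Stat2, which carries the interferon signal to the nucleus, had 99.1, 94.6 and 97.4 CPM against 75.97, 80.6 and 78.8 CPM (0.31 ± 0.05, adjusted p = 0.000158). The cytosolic RNA sensor Ifih1 had 49.5, 48.1 and 45.05 CPM against 35.3, 37.1 and 39.9 CPM (0.35 ± 0.06, adjusted p = 0.000779), and 6 of 23 tested sensors of nucleic acids and NOD type rose while 0 fell. The receptor chains Ifngr1 (-0.24 ± 0.06, adjusted p = 0.0244) and Ifnar2 (-0.22 ± 0.06, adjusted p = 0.0353) fell. Ifngr1 was not called without untreated replicates 2 and 3 (adjusted p = 0.12 and 0.12) or 10 µg 6 h replicates 1 and 2 (adjusted p = 0.139 and 0.075), and Ifnar2 was not called when any 1 library was dropped (adjusted p between 0.0674 and 0.149).

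The promoter of Irgm1 is printed because it holds the ISRE letters (GAAA, any 2 bases, GAAA, searched on both strands), at -30 and -24 from the start, as overlapping matches in capitals. The window is chr11:48871371-48871670 on the minus strand, RefSeq on GRCm38.p6. These letters were in 28 of 56 list members with a window, 3.96% of all tested genes and 3.44% of all windows. Of the list members that rose, 11 of 22 had them, the share of the whole list.
Irgm1 promoter: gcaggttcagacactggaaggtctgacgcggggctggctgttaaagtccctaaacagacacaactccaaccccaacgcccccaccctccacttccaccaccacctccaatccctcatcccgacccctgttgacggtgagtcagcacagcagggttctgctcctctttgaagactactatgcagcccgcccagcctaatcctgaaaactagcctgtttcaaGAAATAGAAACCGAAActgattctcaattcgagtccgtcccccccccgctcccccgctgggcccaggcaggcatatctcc

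Transcription factors of macrophage identity changed singly. Of 47 tested, 5 rose and 4 fell, and the falls were 3, 1 and 1 when untreated replicate 1, 2 or 3 was left out, and 2, 1 and 2 when 10 µg 6 h replicate 1, 2 or 3 was. Nfatc1, the master factor of osteoclasts, had 361, 373 and 354 CPM in 10 µg 6 h cells and 252, 229 and 247 CPM in untreated cells (0.58 ± 0.06, adjusted p = 2.79e-07). It was called without each library in turn. Bhlhe40, a repressor of Il10 in immune cells, had 128, 130.0 and 129 CPM against 95.6, 97.1 and 96.03 CPM (0.42 ± 0.07, adjusted p = 0.000497), and Zeb2, which maintains macrophage identity, had 382, 370.3 and 373 CPM against 309.9, 298 and 306 CPM (0.30 ± 0.05, adjusted p = 0.000262). Of 32 AP-1 and immediate early genes, 5 rose and 2 fell, and 1 fell without untreated replicate 1 or 10 µg 6 h replicate 2. Egr1 had 57.5, 61.05 and 57.9 CPM against 39.5, 33.9 and 39.7 CPM (0.64 ± 0.12, adjusted p = 0.00335), Fosl2 gave 0.46 ± 0.08 (adjusted p = 0.00108) and Atf3, a stress-induced repressor, gave 0.30 ± 0.05 (adjusted p = 0.000779). Id3, which blocks helix-loop-helix factors and is a target of BMP signals, was lower, at 80.7, 77.7 and 76.1 CPM against 116, 112 and 106 CPM (-0.51 ± 0.10, adjusted p = 0.00598).

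Of 26 tested osteoclast genes, 8 rose (30.8%, beside 4.09% of all tested genes) and 0 fell, with a median of 0.20. Beside Nfatc1 these included Src, the kinase that organises the resorbing membrane, at 46.2, 42.5 and 46.98 CPM in treated and 31.5, 27.5 and 27.2 CPM in untreated libraries (0.65 ± 0.07, adjusted p = 2.86e-06). The chloride channel Clcn7 had 123, 143 and 138 CPM against 102, 100.3 and 102 CPM (0.41 ± 0.06, adjusted p = 4.07e-05), and the proton pump subunit Tcirg1 had 524, 560.4 and 532 CPM against 442, 449.7 and 437 CPM (0.28 ± 0.05, adjusted p = 0.000631). Both proteins acidify the space under an osteoclast, and both genes were higher in all treated libraries. Itgav, the integrin chain that binds bone matrix, gave 0.30 ± 0.05 (adjusted p = 0.000709). The collagen-degrading protease Ctsk, at 2585, 2514 and 2585 CPM against 2305, 2192 and 2161 CPM (0.21 ± 0.05, adjusted p = 0.0182), was not called without untreated replicates 2 and 3 (adjusted p = 0.0746 and 0.103) or 10 µg 6 h replicates 1, 2 and 3 (adjusted p = 0.0757, 0.0524 and 0.0754). The count of 8 was 6 without each of the 6 libraries. Tnfrsf11a, the receptor RANK that drives the programme, had 129.6, 128 and 138 CPM against 139, 135 and 138 CPM, with overlapping groups.

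Feedback genes of TGF-beta and BMP signalling, in which Pmepa1 gave the largest change, had 6 risers and 2 fallers of 33 tested, or 1 faller without untreated replicate 1 or 10 µg 6 h replicate 2. Tgif1, a corepressor of SMAD factors, had 109, 112 and 108 CPM in 10 µg 6 h cells and 92.5, 90.3 and 92.1 CPM in untreated cells (0.26 ± 0.05, adjusted p = 0.000816). Smurf1, a ligase that degrades SMADs and receptors, gave 0.31 ± 0.06 (adjusted p = 0.000952), and the receptor Tgfbr1 gave 0.26 ± 0.05 (adjusted p = 0.0024). All 3 were higher in every treated library. Smad7, the inhibitory SMAD, had 7.92, 9.80 and 8.69 CPM against 8.73, 7.94 and 7.90 CPM, with overlapping groups.

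Several of the smallest p-values belonged to genes outside these families. Bcar3, a signalling scaffold of cell adhesion, had 132, 142 and 138 CPM in treated and 82.5, 87.9 and 86.5 CPM in untreated libraries (0.68 ± 0.05, adjusted p = 1.47e-08). Ercc6, a chromatin remodeller of DNA repair, had 114, 119 and 112 CPM against 83.05, 77.5 and 77.95 CPM (0.53 ± 0.05, adjusted p = 6.83e-07), and Cpd, a carboxypeptidase of the Golgi, had 493, 456 and 465 CPM against 344, 348 and 342 CPM (0.45 ± 0.05, adjusted p = 6.83e-07). Tm4sf19, a membrane protein gene known from osteoclasts, had 69.2, 68.1 and 65.9 CPM against 46.6, 43.1 and 47.9 CPM (0.56 ± 0.06, adjusted p = 1.98e-06). In these 4 genes the groups were apart with small spread. Among the fallers, Niban1, a stress-responsive gene, had 126, 129 and 121 CPM against 162, 163 and 168 CPM (-0.39 ± 0.06, adjusted p = 0.000125), Wdfy2, an endosome protein gene, gave -0.27 ± 0.05 (adjusted p = 0.000507) and Dglucy, an enzyme of D-glutamate metabolism, gave -0.31 ± 0.05 (adjusted p = 0.000651). The most abundant called genes moved little. Ctnnb1, beta-catenin, had 1507, 1505 and 1498 CPM against 1281, 1200 and 1227 CPM (0.28 ± 0.05, adjusted p = 0.000346), and Nrp2, a co-receptor for VEGF-C and semaphorins, had 1674, 1685 and 1694 CPM against 1397, 1354 and 1410 CPM (0.28 ± 0.06, adjusted p = 0.00411). Vegfc itself, a growth factor of lymph vessels, had 38.3, 40.5 and 40.4 CPM against 21.2, 20.6 and 22.2 CPM (0.90 ± 0.22, adjusted p = 0.0364). It was not called when any 1 of the 6 libraries was dropped (adjusted p between 0.0835 and 0.114), but stayed called when only these 6 were fitted.

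**Figure D4:**
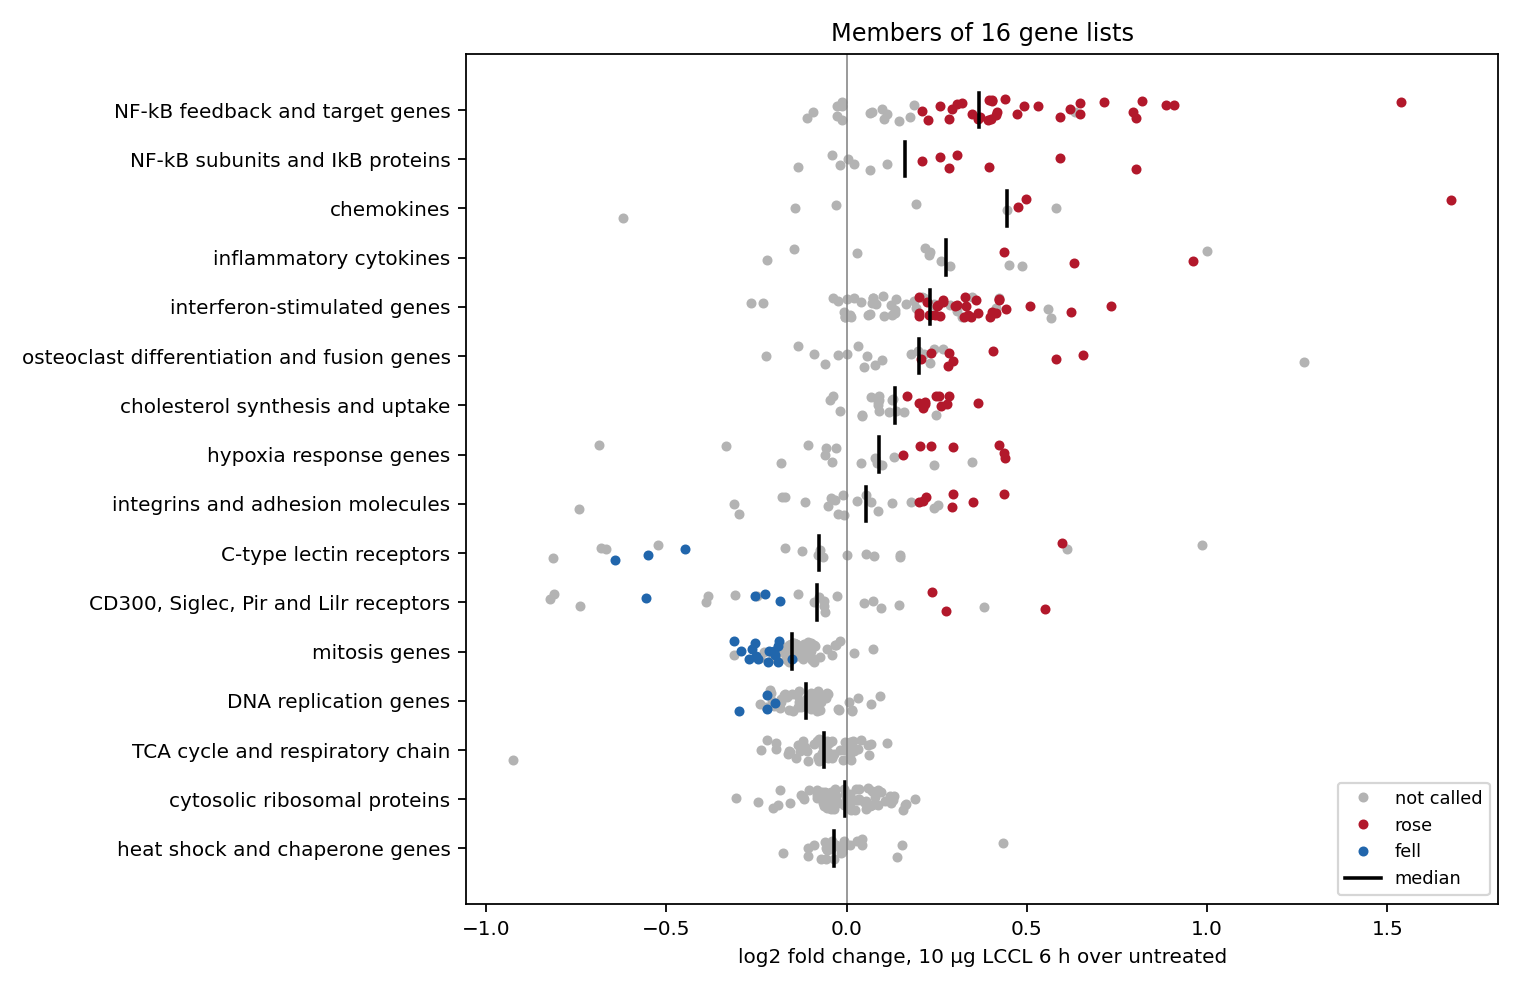
Log2 fold change of 10 µg LCCL 6 h over untreated (x axis) for each tested member of 16 gene lists (rows), in red where it rose, in blue where it fell and in grey where it was not called, with the list's median as a black bar. NF-kB targets (median 0.37) and interferon-stimulated genes (median 0.23) lie to the right, mitosis genes (median -0.15) to the left, and respiratory chain and ribosomal protein genes hold no called member.

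Of 16 tested genes of eicosanoid synthesis, 1 rose and 1 fell, with a median log2 fold change of -0.03. Each is 6.25% of the list, beside 4.09% risen and 1.86% fallen of all tested genes. Ptges, the terminal enzyme of prostaglandin E2 synthesis, had 26.8, 29.2 and 28.9 CPM in 10 µg 6 h cells and 16.98, 16.5 and 15.8 CPM in untreated cells (0.79 ± 0.13, adjusted p = 0.00108). Alox5, which starts leukotriene synthesis, had 24.2, 25.1 and 23.2 CPM against 31.4, 32.5 and 31.6 CPM (-0.40 ± 0.08, adjusted p = 0.00411). Of 19 tested genes of arginine, polyamine, histidine and itaconate metabolism, 4 rose and 0 fell, Acod1 and Hal among them, and the rises were 2, 2 and 3 when untreated replicate 1, 2 or 3 was left out, and 3, 2 and 2 when 10 µg 6 h replicate 1, 2 or 3 was. Odc1, the entry enzyme of polyamine synthesis, had 183, 185 and 189 CPM against 133, 136 and 147 CPM (0.42 ± 0.09, adjusted p = 0.0165), but was not called without untreated replicates 1 and 2 (adjusted p = 0.0758 and 0.0659) or 10 µg 6 h replicates 2 and 3 (adjusted p = 0.0575 and 0.0572). St3gal5, the sialyltransferase that makes the ganglioside GM3, had the smallest p-value of the genes that fell, at 203, 215 and 208 CPM against 288, 276 and 294 CPM (-0.45 ± 0.06, adjusted p = 5.08e-05). Gda, guanine deaminase, stood at 80.2, 77.8 and 78.03 CPM against 102, 101 and 98.3 CPM (-0.35 ± 0.05, adjusted p = 8.86e-05).

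Genes of the hypoxia response and of glucose uptake rose in part, while most of glycolysis was not called. Of 22 hypoxia response genes, 7 rose (31.8%) and 0 fell (median 0.09). Of 30 genes of glycolysis and the pentose phosphate pathway, 4 rose (13.3%, beside 4.09% of all tested genes) and 0 fell (median -0.02). Slc2a1, the main glucose transporter, had 255, 271 and 260.2 CPM in treated and 196, 182 and 202 CPM in untreated libraries (0.44 ± 0.07, adjusted p = 0.000461). Eno2, an enolase best known from neurons, had 44.4, 45.2 and 43.9 CPM against 26.6, 28.3 and 29.3 CPM (0.66 ± 0.08, adjusted p = 2.82e-06), and Pfkfb3, which makes the activator of phosphofructokinase, gave 0.30 ± 0.07 (adjusted p = 0.00692). Hilpda, a lipid droplet protein induced by low oxygen, had 11.6, 11.9 and 13.1 CPM against 9.08, 7.62 and 7.40 CPM (0.60 ± 0.12, adjusted p = 0.00275). Pkm, a pyruvate kinase gene, had 3264, 3338 and 3415 CPM against 3403, 3225 and 3342 CPM, with overlapping groups. Hif1a, the oxygen-regulated transcription factor, gave 0.20 ± 0.05 (adjusted p = 0.0114), and was not called without untreated replicates 1 and 3 (adjusted p = 0.0569 and 0.0563) or 10 µg 6 h replicate 1 (adjusted p = 0.0913).

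Part of the cholesterol synthesis and uptake genes rose slightly. Of 28 tested, 11 rose and 0 fell, the median log2 fold change was 0.13, and in 21 of the 28 all treated libraries were above all untreated ones (14.0% of all tested genes). Insig1, the sterol-sensing brake of the pathway, had 167, 176 and 183 CPM in 10 µg 6 h cells and 134, 137 and 139 CPM in untreated cells (0.36 ± 0.06, adjusted p = 0.000728). Hmgcs1, an early enzyme of the pathway, had 277, 263 and 282 CPM against 226, 231 and 236 CPM (0.25 ± 0.05, adjusted p = 0.00335). Sc5d, a late one, gave 0.28 ± 0.06 (adjusted p = 0.00568), and Fdft1, squalene synthase, gave 0.28 ± 0.06 (adjusted p = 0.00411), although its exons overlap those of the much more abundant Ctsb on the other strand. The count of 11 was 4, 7 and 7 when untreated replicate 1, 2 or 3 was left out, and 8, 9 and 4 when 10 µg 6 h replicate 1, 2 or 3 was. Outside synthesis, Abcg1, which exports cholesterol, rose (60.1, 63.1 and 62.6 CPM against 42.5, 45.1 and 52.8 CPM, 0.41 ± 0.06, adjusted p = 0.000152). Lpl, the lipase that frees fatty acids from lipoproteins and one of the most abundant fallers, had 2103, 2001 and 2005 CPM against 2426, 2545 and 2494 CPM (-0.29 ± 0.06, adjusted p = 0.00308).

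The Hmgcs1 promoter is shown because it holds the letters of a sterol regulatory element, TCACNCCAC, at -137 from the start, in capitals. Its window is chr13:119690101-119690400 on the plus strand, RefSeq on GRCm38.p6. The letters were in 1 of the 20 list members with a window and in 1.35% of all tested genes.
Hmgcs1 promoter: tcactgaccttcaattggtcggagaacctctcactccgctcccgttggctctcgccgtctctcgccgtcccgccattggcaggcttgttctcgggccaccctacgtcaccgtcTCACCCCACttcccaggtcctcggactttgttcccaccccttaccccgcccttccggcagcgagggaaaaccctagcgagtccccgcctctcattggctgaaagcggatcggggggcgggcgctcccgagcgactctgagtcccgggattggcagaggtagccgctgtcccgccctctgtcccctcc

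At the cell surface, transporters, adhesion genes and proteases had called members that all rose. Of 45 tested solute carriers of amino acids, ions and nucleosides, 7 rose (15.6%, beside 4.09% of all tested genes) and 0 fell. Slc6a8, the creatine transporter, had 232, 245 and 241 CPM in treated and 166, 158 and 157 CPM in untreated libraries (0.58 ± 0.06, adjusted p = 2.37e-06), and Slc20a1, a phosphate transporter, had 279, 272 and 273 CPM against 214, 196 and 208 CPM (0.42 ± 0.05, adjusted p = 5.59e-06). The metal transporters Slc11a2 for iron (0.40 ± 0.06) and Slc31a2 for copper (0.40 ± 0.07) rose as well (adjusted p = 4.21e-05 and 0.000604). The list's count was 6, 4 and 5 when untreated replicate 1, 2 or 3 was left out, and 4, 5 and 6 when 10 µg 6 h replicate 1, 2 or 3 was. Of 27 integrins and adhesion molecules, 7 rose and 0 fell. Itga5, the fibronectin receptor chain, had 384, 397 and 396 CPM against 291, 291 and 288 CPM (0.44 ± 0.05, adjusted p = 4.77e-06). Of 26 matrix proteases and their inhibitors, 7 rose and 0 fell. Plau, the urokinase that activates plasminogen, had 784, 783 and 782 CPM against 460.2, 474 and 497 CPM (0.71 ± 0.09, adjusted p = 8.35e-05), with almost equal treated libraries. Spp1, osteopontin, the most abundant gene that rose, had 9095, 8965 and 8730 CPM against 7487, 7781 and 7857 CPM (0.21 ± 0.06, adjusted p = 0.0317), but was not called when any 1 library was dropped (adjusted p between 0.0667 and 0.152). The 7 adhesion genes were 5, 4 and 4 when untreated replicate 1, 2 or 3 was left out, and 4, 6 and 3 when 10 µg 6 h replicate 1, 2 or 3 was. The 7 protease genes were 4, 2 and 3 when untreated replicate 1, 2 or 3 was left out, and 2, 3 and 2 when 10 µg 6 h replicate 1, 2 or 3 was.

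Genes of cell death changed in both directions. Of 31 BCL2 family members, caspases and inhibitors, 5 rose and 4 fell. Mcl1, a survival protein of the BCL2 family, had 1015, 1001 and 1002 CPM in 10 µg 6 h cells and 884, 843 and 830.0 CPM in untreated cells (0.24 ± 0.05, adjusted p = 0.00158), and Bcl2l1, the gene of BCL-XL, gave 0.22 ± 0.05 (adjusted p = 0.00379). Pmaip1, the death-promoting protein NOXA, had 21.9, 20.3 and 19.9 CPM against 26.8, 25.96 and 28.6 CPM (-0.39 ± 0.09, adjusted p = 0.00598). All 3 were called without each library in turn. Of 19 inflammasome and pyroptosis genes, 4 rose and 1 fell. The 4 rises were 2, 3 and 3 when untreated replicate 1, 2 or 3 was left out, and 2, 2 and 3 when 10 µg 6 h replicate 1, 2 or 3 was, and the fall was not called without any 1 of the 6. The sensor Nlrp3 had 158, 162 and 158 CPM against 132, 128 and 134 CPM (0.28 ± 0.06, adjusted p = 0.0066) and Casp4, the mouse caspase-11 that detects lipopolysaccharide, had 26.4, 27.3 and 24.4 CPM against 17.8, 20.4 and 16.5 CPM (0.51 ± 0.09, adjusted p = 0.00139).

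Called genes of the mitosis, DNA replication and G1 lists all fell, by small amounts. A further list, of p53 targets and growth arrest genes, went both ways. Of its 28 tested genes, 3 rose (10.7%, beside 4.09% of all tested genes) and 2 fell (7.14%, beside 1.86%). Of 71 tested mitosis genes, 0 rose and 15 fell (21.1%, beside 1.86% of all tested genes), the median log2 fold change was -0.15, and in 51 all treated libraries were below all untreated ones (13.3% of all tested genes). Ube2c, which marks mitotic cyclins for destruction, had 83.05, 79.9 and 81.6 CPM in treated and 98.7, 95.2 and 97.1 CPM in untreated libraries (-0.25 ± 0.05, adjusted p = 0.00184). Kif11, the motor that separates the spindle poles, had 142, 142 and 146 CPM against 159, 187 and 173 CPM (-0.27 ± 0.06, adjusted p = 0.00789) and was not called without untreated replicate 2 (adjusted p = 0.0719). Of 54 DNA replication genes 0 rose and 4 fell, with a median of -0.11. Rpa1, which coats single-stranded DNA, had 186, 181 and 183 CPM against 211, 219 and 210.4 CPM (-0.22 ± 0.05, adjusted p = 0.00353). Of 31 G1 cyclins, CDK inhibitors and E2F factors, 0 rose and 5 fell, among them the cyclin Ccnd3 at 58.8, 61.3 and 61.3 CPM against 73.8, 71.4 and 75.7 CPM (-0.28 ± 0.05, adjusted p = 0.000988). Cdkn1a, the arrest protein p21, was also lower (-0.21 ± 0.06, adjusted p = 0.0283), but was not called when any 1 library was dropped (adjusted p between 0.0594 and 0.133). Mki67, the proliferation marker, had 1290, 1321 and 1250 CPM against 1438, 1457 and 1468 CPM, and its -0.18 ± 0.07 did not pass (adjusted p = 0.14). The 15 mitosis genes were 7, 3 and 6 when untreated replicate 1, 2 or 3 was left out, and 6, 4 and 4 when 10 µg 6 h replicate 1, 2 or 3 was. The 4 replication genes were 2, 1 and 2 when untreated replicate 1, 2 or 3 was left out, and 2, 2 and 2 when 10 µg 6 h replicate 1, 2 or 3 was. The 5 genes of the G1 list were 2, 4 and 1 when untreated replicate 1, 2 or 3 was left out, and 1, 3 and 2 when 10 µg 6 h replicate 1, 2 or 3 was. When only these 6 libraries were fitted, 37 mitosis and 21 replication genes fell and 0 rose.

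The Ube2c promoter is printed because it carries the cell cycle homology region (CHR), letters TTTGAA on either strand, at -29 from the start. The window is chr2:164769679-164769978 on the plus strand, RefSeq on GRCm38.p6, with the match in capitals. CHR letters were in 42 of 59 mitosis genes with a window (71.2%), 14.9% of all tested genes and 39 of 178 fallers (21.9%).
Ube2c promoter: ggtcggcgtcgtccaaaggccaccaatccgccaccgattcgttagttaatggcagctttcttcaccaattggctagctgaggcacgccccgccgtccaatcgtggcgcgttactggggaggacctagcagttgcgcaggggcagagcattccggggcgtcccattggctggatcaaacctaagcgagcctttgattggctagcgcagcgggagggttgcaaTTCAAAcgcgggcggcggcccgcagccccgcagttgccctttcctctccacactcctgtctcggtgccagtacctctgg

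Lists of basic cell functions held few called genes or none. Of 50 lysosome and autophagy genes 3 rose (6%, near the 4.09% of all tested genes) and 0 fell. The rises were 2, 2 and 1 when untreated replicate 1, 2 or 3 was left out, and 1, 2 and 1 when 10 µg 6 h replicate 1, 2 or 3 was. Of 56 ribosome biogenesis and nucleolar factors 0 rose and 1 fell, the fall being 0, 1 and 0 when untreated replicate 1, 2 or 3 was left out, and 1, 0 and 0 when 10 µg 6 h replicate 1, 2 or 3 was. In the TCA cycle and respiratory chain 0 of 54 genes passed edgeR (8 with an unadjusted p under 0.05, 2 by DESeq2, 0 by limma-voom), with a median of -0.06. Of 71 cytosolic ribosomal protein genes 0 passed (4 unadjusted, 1 by DESeq2, 0 by limma-voom), and of 15 housekeeping genes 0 passed (1 unadjusted, 0 by either of the other tools). For heat shock and chaperone genes the count was 0 of 27 (5 unadjusted, 0 by DESeq2 and limma-voom), and for the unfolded protein response 0 of 27 (1 unadjusted, 1 by DESeq2, 0 by limma-voom). At this depth the median SE was 0.05 on the log2 scale for genes of 100 CPM or more and 0.48 for genes under 1 CPM, so changes as small as those above were not detectable in genes of low level.

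Between the doses at 6 h, the comparison of 10 µg with 1 µg called 230 genes higher (1.85%) and 61 lower (0.492%). It asks whether the larger dose gave other levels than the smaller one at the same time. Acod1 had 16.97, 13.7 and 15.8 CPM at 1 µg, so 10 µg was higher by 1.50 ± 0.28 on the log2 scale (adjusted p = 0.0199). Tnf had 117, 112 and 116 CPM at 1 µg (0.76 ± 0.14, adjusted p = 0.0171) and Hal 5.44, 6.45 and 5.03 CPM (1.12 ± 0.12, adjusted p = 4.44e-06). Il13ra2 had 90.7, 90.8 and 82.2 CPM (0.71 ± 0.06, adjusted p = 4.69e-07) and Plau 543, 536 and 514 CPM (0.56 ± 0.09, adjusted p = 0.00156). In each of these 5 genes every 10 µg library was above every 1 µg library, but Acod1 and Tnf were not called without 1 µg 6 h replicates 1, 2 and 3 (adjusted p = 0.0789, 0.0984 and 0.0796) or 10 µg 6 h replicates 1, 2 and 3 (adjusted p = 0.0632, 0.0571 and 0.0825) for Acod1, and without 1 µg 6 h replicates 1, 2 and 3 (adjusted p = 0.0752, 0.0811 and 0.0694) or 10 µg 6 h replicates 1, 2 and 3 (adjusted p = 0.0554, 0.0672 and 0.0654) for Tnf. Tnfaip3 (0.57 ± 0.07, adjusted p = 5.71e-05), Nfatc1 (0.46 ± 0.06, adjusted p = 2.67e-05) and Mx2 (0.60 ± 0.09, adjusted p = 0.000322) were higher at 10 µg as well. Clec7a (-0.37 ± 0.07, adjusted p = 0.00156), St3gal5 (-0.40 ± 0.06, adjusted p = 0.000491) and Ube2c (-0.19 ± 0.05, adjusted p = 0.0414) were lower. Ube2c was not called without 1 µg 6 h replicates 1, 2 and 3 (adjusted p = 0.0612, 0.216 and 0.124) or 10 µg 6 h replicates 1, 2 and 3 (adjusted p = 0.0796, 0.17 and 0.134). By list, 23 of 48 NF-kB targets and 19 of 70 interferon-stimulated genes were higher at 10 µg than at 1 µg and 0 were lower, while 2 of 71 mitosis genes were lower. This comparison and the one with untreated cells share the 10 µg 6 h libraries. Its total of 291 genes (2.35% of those tested) was 163, 111 and 135 when 10 µg 6 h replicate 1, 2 or 3 was left out, and 123, 138 and 145 when 1 µg 6 h replicate 1, 2 or 3 was.

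**Figure D5:**
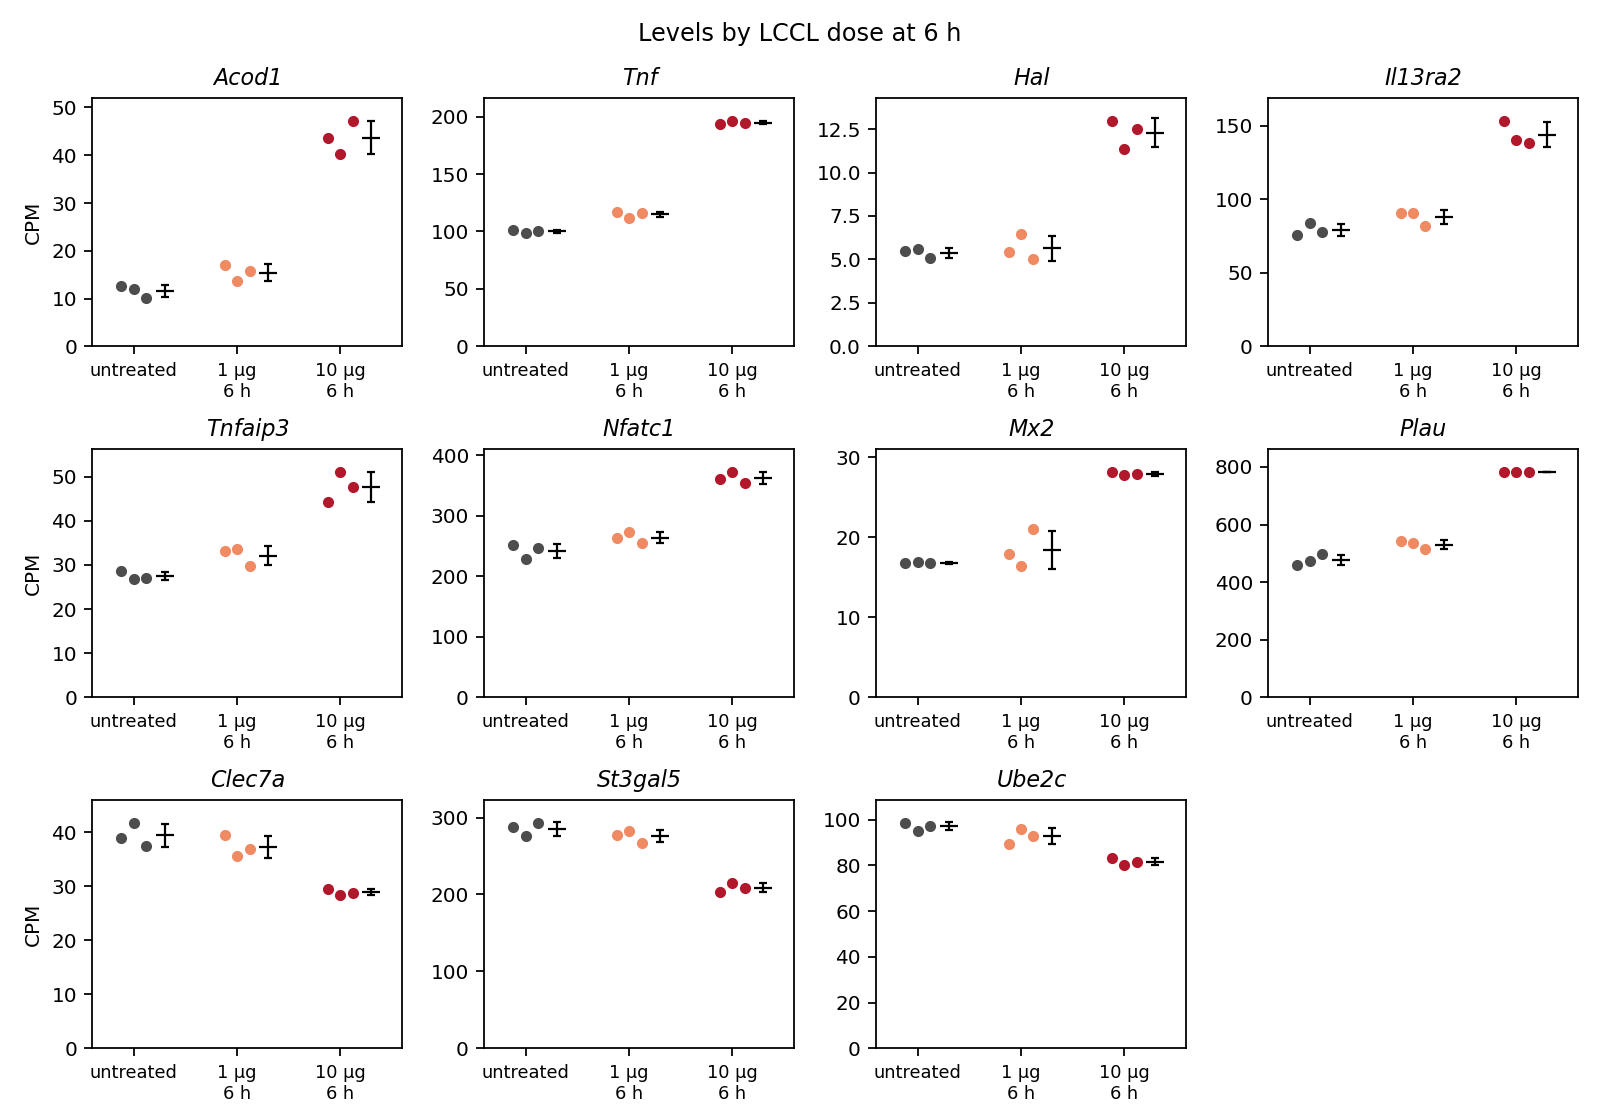
CPM (y axis, from 0) of 11 genes in untreated cells, cells given 1 µg LCCL for 6 h and cells given 10 µg LCCL for 6 h, with 1 point per library and mean ± SD (n = 3) beside the points. The 10 µg libraries stand apart from both other groups in all 11 genes, which were picked for a dose difference, so this is a description only. The mean of the 1 µg libraries lies nearer to that of the untreated ones. In Acod1, Tnf and Plau, all 1 µg libraries are above all untreated ones.

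At 24 h with the same dose, the genes of the 6 h response took different courses. Of the 12401 genes, 4218 were higher (34.0%) and 4361 lower (35.2%) at 24 h than at 6 h, 69.2% in all. No untreated cells of 24 h are among the groups, so time on the peptide and time in culture cannot be told apart. Acod1 stood at 11.02, 8.88 and 10.1 CPM in 10 µg 24 h cells, against 43.6, 40.2 and 47.2 CPM at 6 h (-2.13 ± 0.29, adjusted p = 5.17e-05). Tnf fell to 74.5, 72.1 and 71 CPM in 10 µg 24 h cells (-1.42 ± 0.14, adjusted p = 3.06e-06), which is under all untreated libraries, while Acod1 overlapped them. Pmepa1 had only 1.53, 1.46 and 1.26 CPM at 24 h (-6.31 ± 0.16, adjusted p = 8.56e-16). Nfatc1 (-2.02 ± 0.06, adjusted p = 3.45e-19), Plau (-1.52 ± 0.09, adjusted p = 1.19e-10) and Mx2 (-2.46 ± 0.11, adjusted p = 3.1e-16) were lower too. Others were higher at 24 h than at 6 h. Hal had 35.6, 36.6 and 42.8 CPM in 10 µg 24 h cells (1.64 ± 0.10, adjusted p = 3.59e-13), Vegfa 83.6, 91.9 and 88.5 CPM (2.03 ± 0.07, adjusted p = 1.02e-17) and Abcg1 234, 253 and 251 CPM (1.99 ± 0.06, adjusted p = 5.33e-19). Clec7a, lower than untreated at 6 h, had 86.05, 99.8 and 92.9 CPM at 24 h (1.68 ± 0.06, adjusted p = 2.17e-17). The NF-kB feedback genes Nfkbiz, at 28.8, 26.2 and 26.2 CPM, and Nfkbie, at 35.8, 41 and 41.2 CPM in 10 µg 24 h cells, overlapped with their 6 h levels. Of the lists, 59 of 70 interferon-stimulated genes were lower at 24 h and 5 higher, and all 71 mitosis genes were lower. Of 48 NF-kB targets, 18 were higher and 19 lower, near the shares of all tested genes (34.0% and 35.2%).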

How the data were processed

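Messenger RNA of 15 cultures of RAW264.7 cells was sequenced from stranded libraries, per the labels' protocols. The deposited values are raw read counts per gene symbol, 1 column per library, on build GRCm39 per the submitters' processing notes. The sources used here name no aligner, counter, annotation or strand setting, so reads of genes that overlap on either strand, or of near-identical copies, cannot be told apart (14 of 154 named genes found in GENCODE share exon bases with another tested gene).

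Groups were taken from the sample titles. Counts were fitted with edgeR 4.0.16 in R 4.3.3 (filterByExpr, TMM, robust quasi-likelihood, all 15 libraries with 1 mean per group), with Benjamini-Hochberg adjustment over 12401 genes, called at an adjusted p under 0.05. Keeping all libraries in the fit gives 10 residual degrees of freedom. These genes held 99.97% of all counts. Of the other 13238 symbols, 8141 had no count in any library and 3941 had counts in the 6 libraries. The least counted genes that passed the filter were Gm37691, Gm53046 and Gm614 (46, 50 and 54 counts over 15 libraries), and the most counted that did not were Cfap97d2, Gfap and Cpm (129, 117 and 114). CPM were computed on TMM-scaled totals, and SEs are on the log2 scale. Library totals ran from 19085148 to 22434642. In the 6 compared libraries, 3 counts, the limit that a count of 0 allows, are 0.137 to 0.153 CPM. Such limits cover counting error only.

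No 2 libraries of a group agreed within sampling noise (chi-square over degrees of freedom 2.55 to 5.08). The fit was tested on counts simulated with 1 mean per gene over all 15 libraries, which differs from the real groups. It called 21 of 40 genes raised 1.25-fold, 34 of 40 raised 1.5-fold and 24 of 40 lowered to 0.8 of their level. It also called 10 unchanged genes. Named genes were the 12 largest changes and 10 smallest p-values in each direction among called genes of at least 5 CPM with groups that did not overlap and no clone or predicted-gene name, the 4 largest under 5 CPM, the 6 most abundant, 16 core activation genes, up to 6 genes per list and the printed promoters' genes. The genes Ifit1, Rsad2, Isg15, Rela, Nfkb1, Pim1, Smad7 and 9930111J21Rik2 were added after their values were seen, and some genes that the rule picks are not reported here. The members, lists and motifs were chosen with earlier results of these data known. Promoter windows came from RefSeq on GRCm38.p6, a build other than that of the counts, and were matched by symbol alone. Alternatives were other filters, scalings, DESeq2 1.42.0, limma-voom 3.58.1, a replicate block, the 2 compared groups alone and each library left out.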

Additional observations from a re-analysis of the deposited data

Results flagged for a closer look

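For 8 of the 11 genes whose doses were compared at 6 h, the difference between 10 µg and 1 µg was not the same at 24 h as at 6 h by edgeR's test of the dose by time interaction (adjusted over all 12401 genes), as it was for 2307 of all tested genes (18.6%). The 11 genes were printed for a dose difference at 6 h, which is 1 term of the interaction, so their count is a description. All values are log2 differences, and the interaction is the dose difference at 24 h minus that at 6 h. It also uses the 1 µg 24 h libraries, which differ among themselves in some genes, as in Cxcl2 with 31.2, 10.8 and 9.95 CPM. The interaction was not refitted without any 1 library, so the part of single libraries in it was not tested. For Acod1 it was -2.04 ± 0.41 (adjusted p = 0.00598), from a dose difference of -0.54 at 24 h and 1.50 at 6 h. For Tnf it was -0.97 ± 0.20 (adjusted p = 0.00644), with -0.20 at 24 h and 0.76 at 6 h. For Mx2 it was -1.22 ± 0.15 (adjusted p = 3.73e-06), with -0.61 at 24 h and 0.60 at 6 h, and for Nfatc1 -0.84 ± 0.08 (adjusted p = 1.99e-07), with -0.39 at 24 h and 0.46 at 6 h. In Il13ra2 the difference was smaller at 24 h (0.42, against 0.71 at 6 h, interaction -0.29 ± 0.09, adjusted p = 0.0323).

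Hal had a larger dose difference at 24 h, 1.97 against 1.12 at 6 h (interaction 0.84 ± 0.16, adjusted p = 0.000635). Ube2c had -0.42 at 24 h and -0.19 at 6 h (-0.23 ± 0.07, adjusted p = 0.023). Clec7a changed sign, with 0.24 at 24 h and -0.37 at 6 h (0.61 ± 0.09, adjusted p = 2.45e-05).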

How the results depend on the processing

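For 10 µg at 6 h against untreated cells, 738 genes were called, and 708 with a replicate block, 740 with no filter on low counts, 767 with at least 5 CPM in 3 libraries, 749 with RLE size factors, 746 with library totals only, 720 without robust fitting, 845 by DESeq2 and 698 by limma-voom. With only the 2 groups compared in the fit, 1487 were called, 732 of them among the 738. Without 1 library the count was 390 to 469. Between the doses at 6 h, 291 genes were called, and 1044 with only the 2 groups compared, 213 higher and 52 lower with the replicate block, 259 to 356 under the other settings and 111 to 163 without 1 library. Between 24 h and 6 h, 8579 were called, 8509 with the replicate block, and each setting stayed within 1.5 times. With library totals only, the median log2 change of all genes between the times was 0.107, against 0.0064 with TMM. Replicate numbers are not known to pair samples: deviations of same-numbered 10 µg 6 h and untreated libraries correlated at 0.096, 0.078 and 0.023, and each correlated best with its own number. The block ended the calls of Il1rn, Vegfc and Hddc3 and, between the doses, of Ube2c.

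Of the 152 named genes called against untreated cells, 121 were called under every setting that gave them an adjusted p. In those settings no fold change of a named gene turned its sign. Settings without an adjusted p for a gene were skipped. Olr1, under 5 CPM in every library, got none with at least 5 CPM in 3 libraries or by DESeq2. With no filter on low counts Cxcl2, Il1rn, Tmem26, Hddc3 and, between the doses, Ube2c were not called, by limma-voom Clec10a, Fcgr1, Ier5l, Ifnar2 and Nphs1 were not, without robust fitting Fcgr1 was not, and by DESeq2 Tmem26 was not. Isg15, Mki67, Ptgs2 and Tlr4 were called only in some settings, all 4 with the 2 groups alone. Hddc3 was the only named gene to lose its call with the 2 groups alone. Where a call changed, the cause was not tested. Depth limits genes of low level: under 1 CPM, 0.786% were called.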

Other observations

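Further gene families, picked after their values were seen, hold many genes outside the lists above, although Vegfa and Kdm3a are in both, and their counts are a description only. Of 9 tested VEGF, PDGF and Notch ligand genes with the neuropilins, 6 rose and 1 fell (77.8%, beside 5.95% of all tested genes). Pdgfa, a growth factor for fibroblasts and smooth muscle, had 21.3, 22.5 and 25.1 CPM in 10 µg 6 h cells and 14.9, 13.96 and 14.4 CPM in untreated cells (0.67 ± 0.08, adjusted p = 8.2e-06). Jag1, a Notch ligand, had 35.4, 33.2 and 31.7 CPM against 20.1, 20.3 and 17.5 CPM (0.79 ± 0.11, adjusted p = 0.00023), and Pdgfb gave 0.27 ± 0.05 (adjusted p = 0.00192). In all 3 the treated libraries lay above the untreated ones. Nrp1, a co-receptor of VEGF, went the other way, at 38.9, 37.6 and 36.6 CPM against 46.6, 45.8 and 48.1 CPM (-0.31 ± 0.06, adjusted p = 0.00228), while its relative Nrp2 rose.

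Sugar-modifying enzymes of the Golgi were another family. Of 11 sialyltransferase genes, 2 rose and 1 fell (27.3% called, beside 5.95% of all tested genes). St6galnac4 had 92.2, 94.2 and 100.3 CPM in treated and 65.7, 65.8 and 69.01 CPM in untreated libraries (0.52 ± 0.07, adjusted p = 2.74e-05) and St3gal1, which caps O-linked sugars, had 99.97, 104 and 105 CPM against 81.98, 78.1 and 83.8 CPM (0.34 ± 0.05, adjusted p = 9.01e-05), opposite in sign to St3gal5. Of 56 other glycosyltransferase and sulfotransferase genes, 9 rose and 2 fell (19.6% called). B4galt1, a galactosyltransferase, had 236, 235 and 232 CPM against 181, 184 and 182 CPM (0.36 ± 0.05, adjusted p = 1.36e-05). Of 44 histone lysine methyltransferase and demethylase genes, 4 rose and 0 fell (9.09% called, not far above the 5.95% of all tested genes). Dot1l, the H3K79 methyltransferase, had 346, 373 and 370.4 CPM against 273, 258 and 273 CPM (0.44 ± 0.05, adjusted p = 2.86e-06), and Kdm6b, an H3K27 demethylase induced in activated macrophages, had 22.6, 25.1 and 22.3 CPM against 17.5, 14.8 and 15.8 CPM (0.54 ± 0.09, adjusted p = 0.000664), with groups apart in both. Rab GTPases, which steer vesicles, gave 0 risers and 2 fallers of 46 tested (4.35% called, under the share of all tested genes).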
